A study of Mus musculus with 18 samples.

Results

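C3H/10T1/2 cells are a mouse embryonic fibroblast line used as mesenchymal progenitor cells (MPCs), because they can be driven towards fat, cartilage or bone. RNA depleted of ribosomal RNA was sequenced from 3 lines of these cells in normal medium: an isogenic *Atrx* WT line that received the empty Cas9 vector, the *Atrx* KO clone G7 made with guide sg5, and the *Atrx* KO clone B10 made with guide sg6. Each line has 3 libraries that the labels number 1 to 3. The 6 libraries numbered 1 or 3, out of 18 libraries in the study, are compared here: replicate 1 of WT, G7 and B10 against replicate 3 of the same lines. Each KO line is a single clone. Neither the labels nor the methods say whether a replicate number marks a passage, a day or a preparation. Each line gives 1 difference between replicates 1 and 3. With the line as a block, the *p*-values measure how far that difference varied among the 3 lines. That variation may be technical, and its source was not tested. The question is which genes and repeat families followed the replicate number in the 3 lines.

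ATRX is a chromatin remodeler that, with DAXX, places histone H3.3 at repeats and telomeres. Several groups of genes respond quickly to the state of a culture. Serum induces the immediate early genes, falling sterol activates SREBP2 and the cholesterol pathway, amino acid shortage activates ATF4, and low oxygen activates HIF. Transposable elements (TEs) are repeats copied across the genome, and most of their copies lie in introns or between genes, so unspliced and intergenic RNA also counts towards them.

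The libraries held 20135336 to 33187136 counts, of which 10.4% to 15.5% fell in TE loci. The WT replicate 3 library stood apart, with the most counts and a TE share of 15.5% against 10.4% to 12.3% in the others. *Atrx* was 205, 188 and 243 CPM, counts scaled to a common library size, in WT replicates 1, 2 and 3, 106, 54.5 and 72.3 in G7, and 94.7, 73.1 and 81.0 in B10, so every KO library lay below every WT library. Of 16 mesenchymal progenitor markers, 13 exceeded 1 CPM in every library. *Nt5e* and *Cd34* stayed below 1 CPM in all of them, and *Thy1* was at 23.9 to 32.1 CPM in B10 and at most 0.469 CPM elsewhere. No pair of libraries of a line agreed within sampling noise (chi-square per gene 25.3 to 97.3, where noise alone gives about 1).

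No gene passed the threshold. edgeR's quasi-likelihood test, with the line as a block, compared 12873 genes and 53 TE families. The smallest Benjamini-Hochberg adjusted *p* was 0.208, so 0% of genes and 0% of families were called at an adjusted *p* below 0.05. At an unadjusted *p* below 0.05 there were 925 genes higher in replicate 1, or 7.19% of those tested, and 783 lower, or 6.08%. DESeq2 on the same 6 libraries called 189 genes higher (1.56% of 12125 with an adjusted *p*) and 104 lower (0.858%). Leaving out single libraries changed this count. Without WT replicate 3 the fit rests on the G7 and B10 pairs, and it called 402 genes higher (3.09% of 12992) and 204 lower (1.57%). Without WT replicate 1 it called 709 genes, without G7 replicate 1 it called 239, and without G7 replicate 3 it called 22. Leaving out either B10 library gave 0 calls.

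The lines differed in how far and in which genes their replicates 1 and 3 stood apart. The log2 difference between the pair (replicate 1 minus replicate 3, on CPM + 0.5) had a standard deviation across genes of 0.313 in WT, 0.556 in G7 and 0.409 in B10. It exceeded 1 in either direction for 104 genes in WT, 894 in G7 and 365 in B10. Across the 12873 genes, which are not independent replicates and share each library's depth and composition, the differences of G7 and B10 had a Pearson *r* of 0.661, whereas WT had −0.013 with G7 and 0.159 with B10. A test of WT against the mean of the clones, chosen after seeing the data and made by edgeR in all 9 libraries, called 0 genes at an adjusted *p* below 0.05 and 1514 (11.4% of 13303) at an unadjusted *p* below 0.05. The plot of line against line shows this shape.

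**Figure D1:**
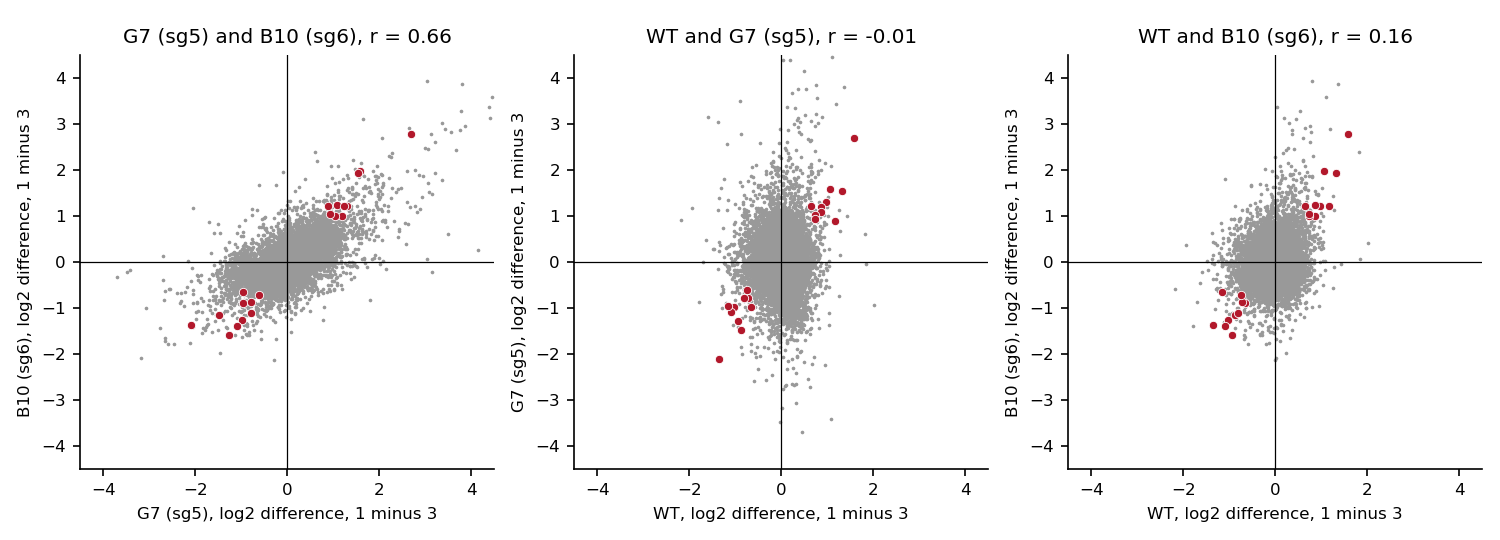
Each grey point is 1 of 12873 genes, and each axis is the log2 difference (replicate 1 minus replicate 3, CPM + 0.5) in 1 line. Red points are the 20 named genes. The cloud is drawn out along the diagonal for G7 against B10 (r = 0.66) and not for WT against G7 (r = −0.01), and it is narrower along the WT axes.

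The 20 genes named below are the 10 with the smallest *p* in each direction among genes with the same direction in every line and an average log2 CPM of at least 1. In bulk RNA, fewer cells of a type and less RNA per cell cannot be told apart. None of the 20 passed the threshold. Their adjusted *p* values lay between 0.208 and 0.240 in edgeR's quasi-likelihood test. In 11 of the 20 the replicate 1 libraries did not overlap the replicate 3 libraries, as in 1423 of all 12873 genes tested. These libraries chose the genes, so that count supports nothing further. All 20 were called by DESeq2, beside 1.56% of genes higher and 0.858% lower. All 20 were also called by edgeR without WT replicate 3, beside 3.09% higher and 1.57% lower. Both fits use libraries that chose the genes, so these calls are not separate evidence. The first group below is made of secreted and matrix proteins, followed by genes of lipid storage, signaling and the cytoskeleton.

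*Frzb* (Entrez 20378, chr2:80411970-80447396, GRCm38), a secreted Wnt antagonist of cartilage, was at 1.95 CPM in WT replicate 1 and 0.675 in WT replicate 3, at 70.8 and 23.2 in G7, and at 12.5 and 2.80 in B10. Each line was higher in replicate 1, although the lines themselves lay so far apart that the groups overlapped. On the log2 scale it was higher by 1.77, with a standard error of 0.17 and an adjusted *p* of 0.208 by edgeR. Complement *C4b* had the largest fold change of the 20. It was at 1.70, 9.33 and 4.67 CPM in replicate 1 of WT, G7 and B10, and at 0.235, 1.02 and 0.255 in replicate 3, with a log2 fold change of 3.35 (standard error 0.32). Every replicate 1 library of *C4b* lay above every replicate 3 library, at low levels throughout. Under the filter of at least 10 counts in every library it was too low to be tested. *C4b* has a close paralog in the mouse genome, and how reads were shared between them was not tested. *Matn3*, a cartilage matrilin, was at 20.1, 33.8 and 19.8 CPM in replicate 1 and 8.68, 18.0 and 8.27 in replicate 3 (log2 fold change 1.11, standard error 0.13). *Clec3b*, which encodes the plasminogen-binding protein tetranectin, was at 25.9, 44.9 and 54.6 CPM in replicate 1 and 12.9, 17.9 and 23.1 in replicate 3. These *Clec3b* values did not overlap.

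*Cxcl1*, a neutrophil chemokine and NF-κB target, was at 116 and 63.7 CPM in WT, 88.8 and 38.7 in G7, and 49.0 and 24.1 in B10, for replicates 1 and 3. Its log2 fold change was 1.02 (standard error 0.11). *Plin4*, a perilipin that coats lipid droplets, was at 140.0 and 84.4 CPM in WT, 437 and 228 in G7, and 382 and 185 in B10. The *Plin4* log2 fold change was 0.90 (standard error 0.12), with the spread between lines larger than that between replicates. *Bhlhe40*, a circadian and hypoxia-responsive repressor, was at 29.5, 47.2 and 37.6 CPM in replicate 1 and at 17.7, 22.8 and 18.5 in replicate 3. Its groups did not overlap. The remaining genes higher in replicate 1 were *Tyrp1*, a melanin synthesis enzyme that was at 1.12 to 23.2 CPM here (log2 fold change 1.82), *Rragd*, a Rag GTPase that relays amino acid supply to mTORC1 (1.18), and *Kcne2*, a potassium channel subunit (1.16).

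Among the genes lower in replicate 1, *Col1a1*, the main chain of type I collagen, was the most abundant. It was at 149.5 CPM in WT, 81.0 in G7 and 147 in B10 in replicate 1, and at 276, 227 and 328 in replicate 3, without overlap. For *Col1a1* the log2 fold change came to −1.19, with a standard error of 0.14 and an adjusted *p* of 0.240 by edgeR. *Scx*, the tendon transcription factor scleraxis that activates *Col1a1*, was at 10.3, 6.05 and 10.3 CPM against 22.6, 13.4 and 27.9 (log2 fold change −1.25, standard error 0.13). The *Scx* groups did not overlap either. Then come genes of actin and adhesion. *Palld*, the actin crosslinker palladin, was at 9.80, 3.498 and 6.41 CPM in replicate 1 and 25.9, 16.7 and 17.4 in replicate 3, with a log2 fold change of −1.69 (standard error 0.21). *Tes*, the focal adhesion protein testin, was at 25.8, 7.98 and 11.2 CPM against 49.8, 20.04 and 34.7 (−1.31, standard error 0.16). *Fmn1* encodes an actin-nucleating formin and was at 14.0 to 18.1 CPM in replicate 1 and 24.4 to 33.8 CPM in replicate 3. The others were *Pcdh19*, a protocadherin (log2 fold change −1.12), *Ahcyl1*, a regulator of the IP3 receptor (−0.86), *Lrrc75b* (−0.96), *Nhsl1* (−0.95) and *Tanc2*, a postsynaptic scaffold (−0.71).

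**Figure D2:**
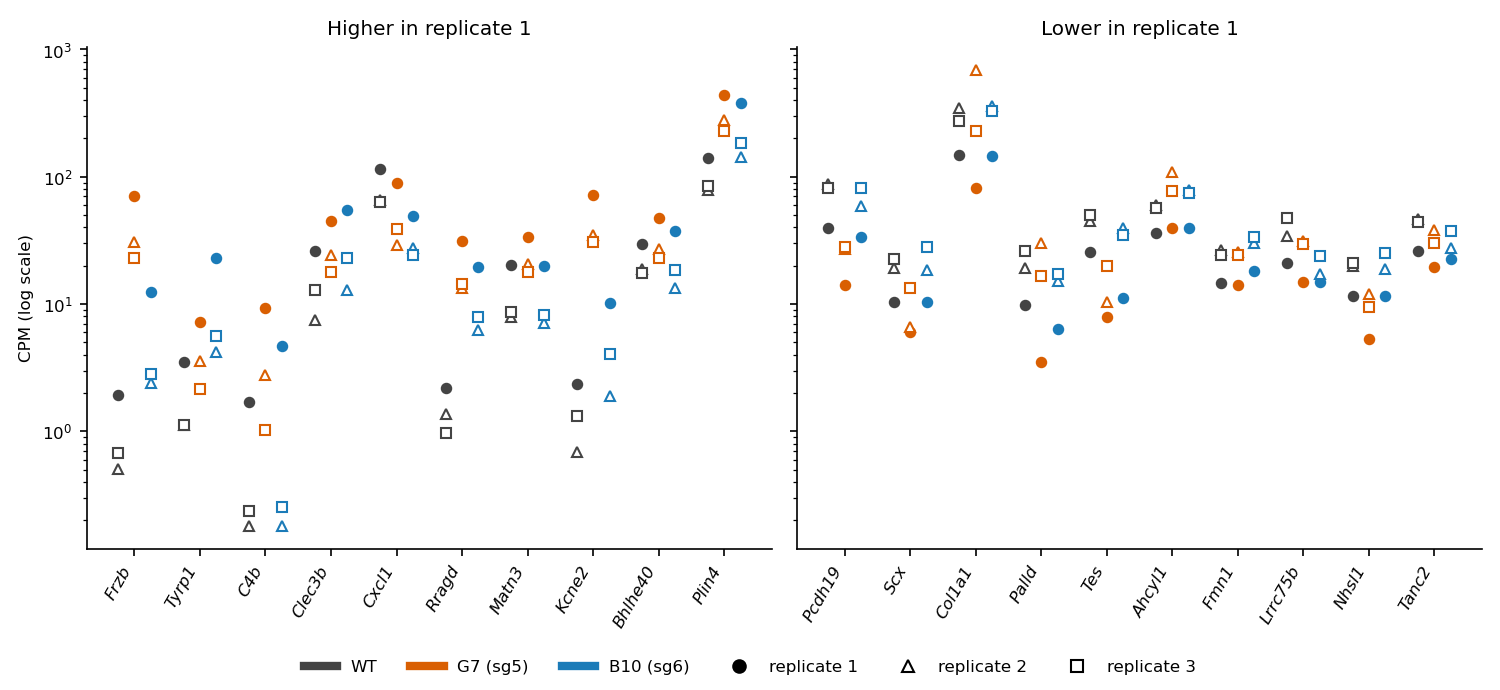
CPM on a log axis of the 20 named genes in all 9 rRNA-depleted libraries. Colours mark the line, filled circles replicate 1, open triangles replicate 2 and open squares replicate 3. Filled circles sit above the squares of their own colour on the left and below them on the right, and most triangles lie near the squares.

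Replicate 2 entered neither the choice of genes nor the fit above. For the 20 named genes it lay nearer to replicate 3 than to replicate 1 in 20 of 20 genes in WT, 18 in G7 and 18 in B10. The exceptions include *Scx* in G7, at 6.05, 6.59 and 13.4 CPM in replicates 1, 2 and 3. *Col1a1* reached 692 CPM in G7 replicate 2, beyond both other G7 libraries. The share of all genes tested whose replicate 2 lay nearer to replicate 3 was not computed. The counts of 20, 18 and 18 therefore stand without a background. With all 9 libraries in the fit, replicate 1 against replicate 2 gave 814 genes higher (6.12% of 13303) and 497 lower (3.74%) at an adjusted *p* below 0.05 by edgeR, with 19 of the 20 named genes among them. Replicate 3 against replicate 2 gave 0 calls and 856 genes (6.43%) at an unadjusted *p* below 0.05, and replicate 1 against replicate 3 again gave 0. The comparisons share the same replicate 1 libraries, so they are not separate evidence.

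Gene lists are described next, and the members named within them were chosen after their values were seen. No member of any list was called in the 6 libraries by edgeR. Over all 12873 genes, 7.19% were higher and 6.08% lower at an unadjusted *p* below 0.05. In every line 2603 of these genes were higher and 2084 lower. Of 23 serum-responsive immediate early genes tested, 13 had an unadjusted *p* below 0.05 and all 13 were higher, against 7.19% of all genes, with a median log2 fold change of 0.39 beside 0.00 for all genes. They were higher in every line for 14 of the 23. Without WT replicate 3, 7 of them were called, all higher, against 3.09% of all genes. *Atf3*, a stress-induced leucine zipper factor, was at 12.9, 27.7 and 24.8 CPM in replicate 1 of WT, G7 and B10 and at 7.01, 13.8 and 14.1 in replicate 3 (log2 fold change 0.89, standard error 0.12). *Ier3*, which modulates survival signaling, was at 94.7, 134 and 98.0 CPM against 57.8, 77.6 and 61.2 (0.72, standard error 0.10), without overlap. *Nr4a1*, an orphan nuclear receptor, was at 170.1, 192 and 182 CPM against 122, 92.6 and 115. *Fos* itself differed less, at 413, 689 and 662 CPM against 356, 445 and 406, and its groups overlapped.

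Of 21 genes for cholesterol synthesis and uptake, 19 were higher in replicate 1 in every line, as were 2603 of all 12873 genes. An unadjusted *p* below 0.05 was found for 14, all higher, against 7.19% of all genes. The median log2 fold change was 0.32. None was called without WT replicate 3, while 10 were called higher in replicate 1 against replicate 2, where 6.12% of all genes were. *Insig1*, the sterol sensor whose transcription SREBP2 drives, was at 371, 518 and 346 CPM in replicate 1 and 247, 224 and 227 in replicate 3 (log2 fold change 0.79, standard error 0.16), without overlap. *Msmo1*, a methylsterol oxidase, was at 446, 743 and 482 CPM against 310, 432 and 382, and these groups did not overlap. *Hmgcs1*, which makes HMG-CoA, was at 594, 933 and 786 CPM against 488, 574 and 609. WT stood with the clones here, with medians of 0.36 in WT, 0.44 in G7 and 0.21 in B10. In *Hmgcs1* the promoter holds a sterol response element of the letters TCACNCCAC, searched on both strands in the RefSeq promoters of GRCm38.p6 (250 bases before to 50 after each start). The matched letters are in capitals in the stretch at chr13:119690184-119690252, plus strand, printed because this was the single match in the list:
*Hmgcs1*: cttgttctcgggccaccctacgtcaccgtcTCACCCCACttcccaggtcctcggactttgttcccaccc
That motif occurred in 1 of the 14 list genes with a promoter and in 1.24% of all 32851 promoters. A gene was counted if any of its promoters matched, so the 2 shares are of unlike units.

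Of 23 hypoxia and glycolysis genes tested, 14 were higher in every line and 1 lower, beside 2603 and 2084 of all 12873 genes. An unadjusted *p* below 0.05 was found for 12, all higher, against 7.19% of all genes. The median log2 fold change was 0.36. Without WT replicate 3, 4 were called higher (*Slc2a1*, *Bnip3*, *P4ha1* and *Pdk1*), against 3.09% of all genes. The secreted vasodilator *Adm* was at 14.3, 28.1 and 23.2 CPM in replicate 1 and 7.30, 16.0 and 16.3 in replicate 3 (0.75, standard error 0.14). *Pfkl*, liver-type phosphofructokinase, was at 30.5, 59.8 and 47.5 CPM against 20.5, 33.7 and 33.5. The 4 genes called without WT replicate 3 differed in the clones and hardly in WT. That fit rests on the clone pairs, so it favours such genes. *Slc2a1*, the glucose transporter GLUT1, was at 33.5 and 31.9 CPM in WT, 87.6 and 38.0 in G7 and 67.3 and 38.4 in B10. *Bnip3*, a mitophagy receptor, was at 45.2 and 41.7 CPM in WT, 136 and 71.2 in G7 and 88.8 and 56.6 in B10. The HIF core letters ACGTG occurred, on either strand, in any promoter of 16 of 22 list genes. They occurred in 19.6% of all single promoters, a share of another unit. That of *Bnip3* is printed because its palindrome holds them on both strands, at chr7:138909580-138909644, minus strand, with the match in capitals:
*Bnip3*: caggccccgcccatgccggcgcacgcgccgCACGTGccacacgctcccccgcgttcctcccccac
A match is a description of the letters only.

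Of 12 adipogenic genes, 7 had an unadjusted *p* below 0.05, all higher, against 7.19% of all genes. The list's median was 0.52 on the log2 scale. *Pparg*, the master regulator of fat cell formation, was at 14.9 and 8.30 CPM in WT, 69.3 and 35.1 in G7 and 38.2 and 25.7 in B10 for replicates 1 and 3. Its log2 fold change came to 0.79, with a standard error of 0.13 and an adjusted *p* of 0.240 by edgeR, and it was called without WT replicate 3 (adjusted *p* = 0.0497). *Dgat2*, which makes triglyceride, was at 30.3 and 16.3 CPM in WT, 185 and 45.6 in G7 and 76.4 and 25.7 in B10 (1.495, standard error 0.23). *Fabp4*, the fatty acid carrier of adipocytes, was at 0.932 and 0.176 CPM in WT, 12.1 and 2.46 in G7, and 1.83 and 1.78 in B10. In these rRNA-depleted libraries the *Fabp4* difference was therefore carried by G7 and, at very low level, WT. *Cebpa*, the partner of PPARγ, went in different directions, at 15.6 and 12.2 CPM in WT, 27.4 and 40.8 in G7 and 30.8 and 38.4 in B10 (−0.20, standard error 0.19). The progenitor marker *Etv1* was at 12.3 and 15.1 CPM in WT, 1.09 and 1.63 in G7 and 2.68 and 4.07 in B10 (−0.48, standard error 0.18). *Cd34*, at most 0.937 CPM, was too low to be tested.

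Cartilage and matrix genes split. Of 14 chondrogenic genes, 6 had an unadjusted *p* below 0.05, all higher, against 7.19% of all genes. Without WT replicate 3, 6 were called higher, against 3.09%. *Cnmd*, the cartilage angiogenesis inhibitor chondromodulin, was at 47.5 and 27.0 CPM in WT, 166 and 43.6 in G7 and 79.3 and 21.3 in B10 (log2 fold change 1.54, standard error 0.25). *Col9a1*, a type IX collagen chain, was at 172 and 158 CPM in WT, 258 and 144 in G7 and 126 and 48.7 in B10. Among 27 matrix genes, 8 were higher and 4 lower at an unadjusted *p* below 0.05, against 7.19% and 6.08% of all genes. The 4 lower were *Col1a1*, *Col1a2*, the crosslinking enzyme *Lox* and the microfibril protein *Fbn1*, while *Col3a1*, *Col6a1*, *Col6a2*, the proteoglycans *Dcn* and *Lum*, and elastin *Eln* were among the 8 higher. *Col1a2* was at 739, 668 and 879 CPM in replicate 1 and 1084, 1082 and 1189 in replicate 3 (−0.57, standard error 0.12), without overlap. *Eln* was at 58.2 and 16.0 CPM in WT, 98.6 and 64.2 in G7 and 366 and 69.5 in B10 (1.62, standard error 0.34). *Dcn*, decorin, was at 25.7 and 19.6 CPM in WT, 18.3 and 5.56 in G7 and 23.4 and 5.81 in B10. Of 6 osteogenic genes, 3 had an unadjusted *p* below 0.05, all lower, against 6.08% of all genes, among them the bone regulator *Runx2* (−0.48) and the matrix protein *Omd* (−0.57).

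Of 20 interferon response genes, 6 had an unadjusted *p* below 0.05, all higher, against 7.19% of all genes, and 5 were called higher without WT replicate 3, against 3.09%. *Ifit3*, an interferon-induced RNA-binding protein, was at 31.7 and 24.4 CPM in WT, 35.3 and 12.8 in G7 and 38.0 and 14.4 in B10. *Dhx58*, the RNA sensor LGP2, was at 12.6 and 9.53 CPM in WT, 23.8 and 7.11 in G7 and 31.9 and 11.4 in B10. The list's median difference was −0.02 in WT, 0.68 in G7 and 0.48 in B10. NF-κB and chemokine genes had 4 higher and 3 lower of 15 at an unadjusted *p* below 0.05, against 7.19% and 6.08% of all genes. *Il6* was at 16.5, 15.5 and 12.5 CPM in replicate 1 and 8.45, 8.24 and 4.16 in replicate 3 (1.13, standard error 0.18). The summed level of 8 macrophage and leukocyte markers was 26.0 to 36.5 CPM in replicate 1 and 13.6 to 26.5 in replicate 3. *Ptprc*, *Adgre1*, *Csf1r*, *Tyrobp* and *Fcer1g* stayed below 1 CPM in every library. Summed endothelial markers were at 3.32 to 9.01 and 2.90 to 13.8 CPM, epithelial at 0.0729 to 3.85 and 0.643 to 5.49, erythroid at 1.26 to 1.42 and 1.78 to 4.61, and neural at 5.17 to 17.3 and 4.92 to 47.4. These sums do not show that such cells were present, and their source was not tested.

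Amino acid response genes were lower in replicate 1 of both clones but, on balance, not in WT. Of 20 targets of ATF4, 6 had an unadjusted *p* below 0.05, all lower in replicate 1, against 6.08% of all genes. Without WT replicate 3, 14 were called lower (1.57% of all genes). The median difference was −0.84 in G7 and −0.86 in B10 but 0.19 in WT, and the difference between lines was not called for any gene. *Slc7a11*, the cystine importer, was at 8.39 and 13.5 CPM in WT, 2.22 and 8.89 in G7 and 4.91 and 14.6 in B10 (log2 fold change −1.40, standard error 0.27). *Trib3*, a pseudokinase that feeds back on ATF4, was at 26.7 and 27.0 CPM in WT, 14.7 and 37.2 in G7 and 23.9 and 65.8 in B10. *Asns*, asparagine synthetase, was at 286 and 253 CPM in WT, 124 and 268 in G7 and 167 and 300.3 in B10, so WT lay the other way. *Phgdh*, the first enzyme of serine synthesis, did the same, with 195 and 139.5 CPM in WT, 116 and 217 in G7 and 133 and 235 in B10. The C/EBP-ATF element letters TGATGCAA were found on either strand in any promoter of 3 of 17 list genes (*Chac1*, *Slc7a11* and *Vldlr*). They were found in 0.895% of all single promoters, a share of another unit. Those of the importer and of *Vldlr*, the VLDL receptor, the list members with the smallest *p*, are printed with every match in capitals, from chr3:50443642-50443709 on the minus strand and chr19:27216790-27216857 on the plus strand:
*Slc7a11*: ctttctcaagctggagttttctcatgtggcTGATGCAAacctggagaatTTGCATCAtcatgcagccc
*Vldlr*: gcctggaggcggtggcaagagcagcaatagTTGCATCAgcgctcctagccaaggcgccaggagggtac
The *Slc7a11* stretch holds 2 matches, one on each strand.

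For 25 genes of G1/S and DNA replication the median difference was 0.28 in WT, −1.08 in G7 and −0.16 in B10, and 0 reached an unadjusted *p* below 0.05. *Mcm5*, a subunit of the replicative helicase, was at 229 and 193 CPM in WT, 77.9 and 220.4 in G7 and 152 and 175 in B10. The 25 G2/M genes had medians of 0.05, −0.98 and 0.06. Their fitted median was −0.28, or 0.02 with the libraries scaled on TE counts alone, a scaling that moves the median of all genes from 0.00 to 0.30 and so leaves the list about as far below it. Histone genes that are expressed in S phase had medians of 0.42, −1.08 and −0.43 over 56 genes, with 0 at an unadjusted *p* below 0.05. Without WT replicate 3, 10 were called lower, against 1.57% of all genes. *H2ac22* was at 277 and 231 CPM in WT, 102 and 244 in G7 and 135 and 219.6 in B10. G7 replicate 1 was the lowest library for *Mcm5* and *H2ac22* among the 6.

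Over 83 genes for cytosolic ribosomal proteins the median was −0.25 on the log2 scale beside 0.00 for all genes, and 0.05 beside 0.30 with the libraries scaled on TE counts alone. By line the median difference was −0.02 in WT, −0.33 in G7 and −0.40 in B10. Of the 83, 10 had an unadjusted *p* below 0.05, all lower, against 6.08% of all genes. In every line 44 were lower, as were 2084 of all 12873 genes. *Rps12* was at 2031, 2003 and 1906 CPM in replicate 1 and 2393, 2935 and 2741 in replicate 3 (−0.45, standard error 0.13). Many of these genes have processed pseudogenes, which can share their reads. Contractile and SRF target genes had 3 of 17 lower (*Fhl2*, *Cnn2* and *Tpm2*) and 0 higher at an unadjusted *p* below 0.05. Their median was −0.24, or 0.06 beside 0.30 for all genes with the libraries scaled on TE counts alone. By line it was 0.02 in WT, −0.52 in G7 and −0.22 in B10. *Fhl2*, a LIM-domain cofactor, was at 54.5 and 74.5 CPM in WT, 22.1 and 45.1 in G7 and 30.5 and 55.4 in B10. The counts in this run of lists are all at an unadjusted *p* below 0.05, beside 7.19% of all genes higher and 6.08% lower. YAP/TAZ targets had 1 higher (*Fstl1*) and 4 lower of 16. The progenitor markers had 2 higher (*Vim* and *Vcam1*) and 2 lower (*Prrx1* and *Etv1*) of 14. Fatty acid synthesis had 4 higher and 1 lower of 14, the unfolded protein response 3 higher of 16, heat shock 2 higher and 1 lower of 11, and p53 targets 2 lower of 17. Small nucleolar and Cajal body RNA genes had 4 lower of 81, a share below the 6.08% of all genes, and nuclear long noncoding RNAs 3 lower of 13. MicroRNA hairpins had 8 higher and 1 lower of 161, shares below the 7.19% and 6.08% of all genes, among them *Mir22hg*, the host transcript of miR-22, at 28.8, 41.5 and 36.8 CPM against 20.8, 22.4 and 25.8.

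**Figure D3:**
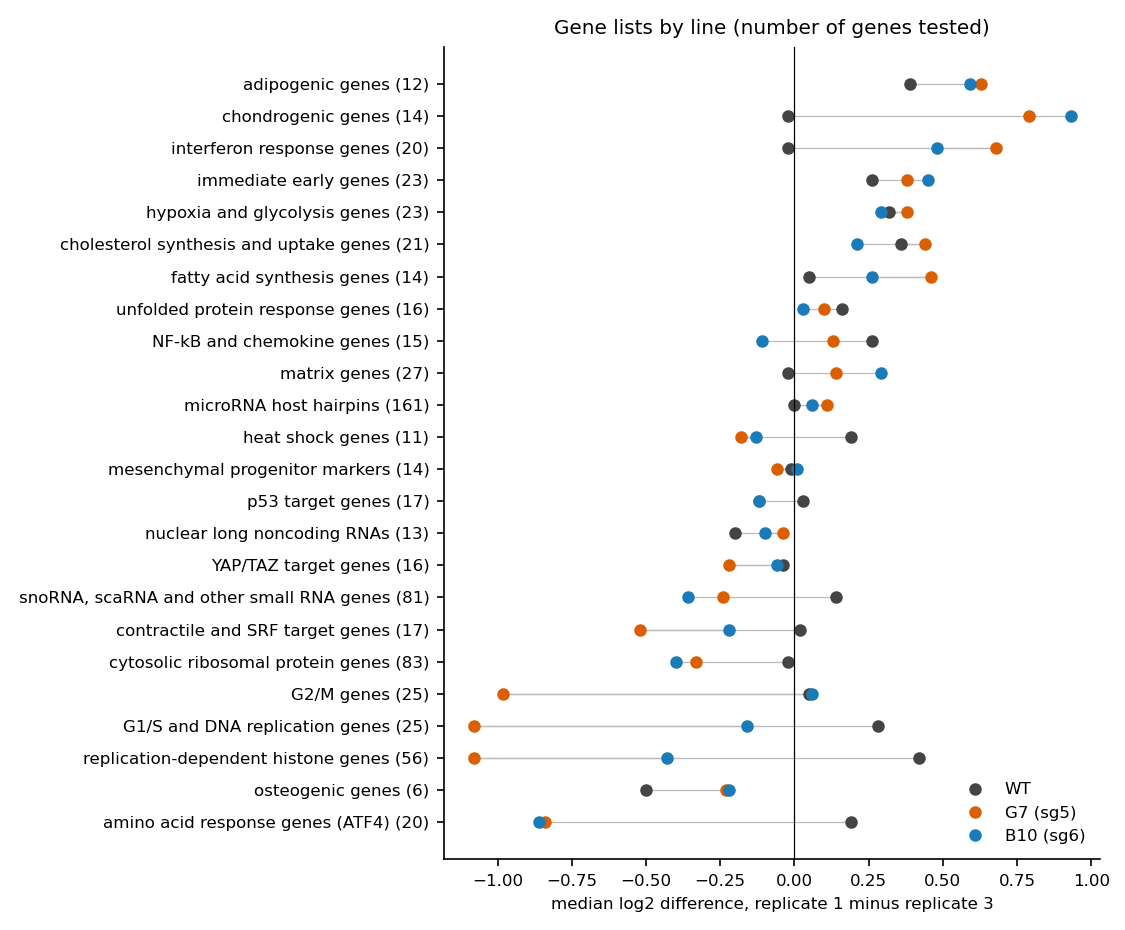
Median log2 difference (replicate 1 minus replicate 3, CPM + 0.5) of each gene list in WT, G7 and B10, for lists with at least 6 genes tested. The cholesterol, hypoxia and immediate early lists lie right of 0 in all lines, while the ATF4, histone and G1/S lists lie right of 0 in WT and left of it in both clones.

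Among the genes called without WT replicate 3, 6 with large fold changes are given, chosen after their values were seen. *Angptl1*, a secreted angiopoietin-like protein, was at 419 and 18.6 CPM in G7 and 187 and 15.1 in B10, and at 50.9 and 23.3 in WT, for replicates 1 and 3. Complement *C3* was at 52.2 and 3.25 CPM in G7, 28.8 and 1.49 in B10, and 16.0 and 5.93 in WT. *Serpina3n*, an acute-phase protease inhibitor, was at 8.85 and 0.643 CPM in G7, 13.1 and 0.382 in B10, and 5.63 and 3.02 in WT. *Sfrp1*, a secreted Wnt inhibitor, was at 30.4 and 2.34 CPM in G7, 23.1 and 2.67 in B10 and 3.81 and 1.38 in WT. In the other direction, *Hmga2*, a chromatin protein of proliferating progenitors, was at 5.10 and 30.2 CPM in G7, 9.54 and 34.1 in B10, and 40.2 and 46.1 in WT. *Ccn4*, a Wnt-induced matricellular protein, was at 4.19 and 27.7 CPM in G7, 12.4 and 44.3 in B10, and 36.7 and 55.7 in WT. Over the 398 higher genes tested in both fits, the median log2 difference was 1.02 in G7, 0.92 in B10 and 0.17 in WT, and 288 were higher in WT too. Over the 203 lower genes it was −0.82, −0.72 and −0.11, and 127 were lower in WT. The G7 and B10 pairs alone chose these genes, so the larger differences in the clones follow from that choice. Over all genes tested the WT median was 0.03.

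Of 53 families tested, 51 had a negative log2 fold change and 40 were lower in every line, beside 2084 of 12873 genes. The median family difference was −0.60 in WT, −0.15 in G7 and −0.12 in B10. No family was called by edgeR (smallest adjusted *p* 0.266). At an unadjusted *p* below 0.05 there were 17 families (32.1% of the 53), all lower, and 12 of 58 (20.7%) differed between WT and the clones at that level. The share of counts in TE loci was 11.8% and 15.5% in WT replicates 1 and 3, 11.3% and 11.4% in G7, and 11.7% and 12.1% in B10. The exact paired permutation test over the 3 lines gave *p* = 0.25, the smallest it can give. Under scaling on TE counts alone the median family changed by −0.02 and 2 of 53 families had an unadjusted *p* below 0.05, a scaling that shifts the median of all genes by 0.30.

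By class, LINE loci took 1.28% and 2.01% of counts in WT replicates 1 and 3, 1.28% and 1.44% in G7, and 1.26% and 1.43% in B10. The L1 family, retrotransposons that still move in mice, was at 10890, 11080 and 10950 CPM in replicate 1 of WT, G7 and B10, and at 17250, 13150 and 12950 in replicate 3. Its log2 fold change was −0.40 (standard error 0.15, unadjusted *p* = 0.0417). The Alu family (B1) was at 13250, 13780 and 13480 CPM against 18500, 14300 and 14100, and ERVK, which holds the IAP elements, at 4077, 4072 and 4186 against 6049, 4475 and 4486. In all of these the replicate 1 libraries lay below the replicate 3 libraries, and the G7 and B10 differences were small beside that of WT. The 3 families with the lowest fold change were rare: UCON16 (−1.38), Penelope (−1.34) and Dong-R4 (−1.09), at 0.081 to 4.11 CPM. The 3 highest were UCON28b (0.18), MER130 (0.03) and RMER1A (−0.06).

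The hAT-Tip100 family of DNA transposons differed by as much in the clones as in WT. It was at 256, 246 and 207 CPM in replicate 1, at 343, 393 and 312 in replicate 2 and at 338, 348 and 320.3 in replicate 3, or −0.52 on the log2 scale between replicates 1 and 3, with a standard error of 0.11 and an adjusted *p* of 0.266 by edgeR. Every replicate 1 library lay below every other library. It was the only family called by DESeq2 (1 of 49 families with an adjusted *p*, 2.04%) and without WT replicate 3 (1 of 53, 1.89%). A single locus, FordPrefect_dup264, held 70.2% of its counts, so the family value is largely that of 1 transcribed copy. Replicate 1 against replicate 2 in all 9 libraries also called it alone (1 of 58, 1.72%). Among 978 elements, the named subtypes within families, 902 were lower and 0 were called by edgeR, with 220 (22.5%) at an unadjusted *p* below 0.05. DESeq2 called 4 (0.437% of 915), all lower: L1_Mm, MMETn-int, RLTR45-int and FordPrefect. L1_Mm was at 145, 96.3 and 73.1 CPM in replicate 1 and 261, 205 and 110 in replicate 3 (−0.87, standard error 0.13), and 28.5% of it came from 1 locus. MMETn-int was at 74.3, 63.2 and 54.0 CPM against 97.0, 99.2 and 85.8, without overlap. Without WT replicate 3, edgeR called 4 elements (0.406%), of which LTRIS3 was higher. LTRIS3 was at 18.4 and 9.18 CPM in G7, 22.8 and 13.0 in B10, and 8.15 and 8.44 in WT, with 90.2% of counts from 1 locus.

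**Figure D4:**
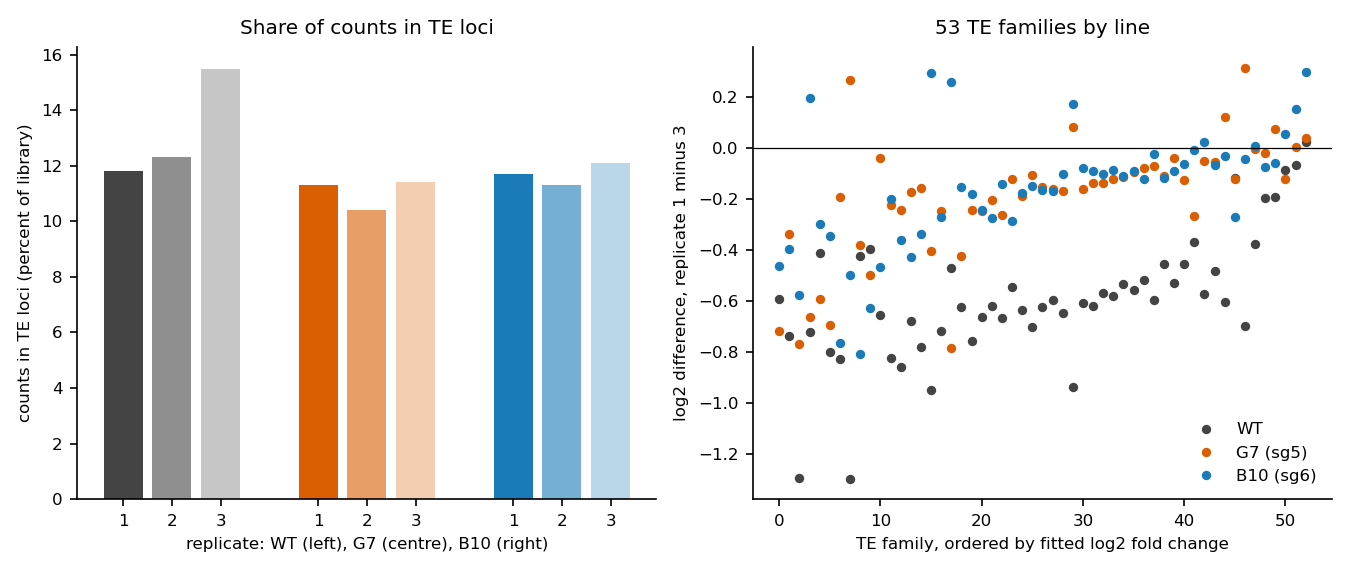
Left, percent of counts in TE loci in each library (bars start at 0), where WT replicate 3 reaches 15.5% and the others stay between 10.4% and 12.3%. Right, log2 difference (replicate 1 minus replicate 3, CPM + 0.5) of 53 TE families in each line, ordered by the fitted fold change; WT points lie mostly near −0.6 and G7 and B10 points nearer to 0.

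Separate polyA-selected libraries of the same lines carry the same replicate numbers, and the labels do not say that they mark the same cultures. Of the 20 named genes, 16 had the same sign there and 12 of these an unadjusted *p* below 0.05 by edgeR. Over all 14914 polyA genes, 20.9% had such a *p* in either direction and 10.4% were higher at it. The share of all genes with the same sign in both kinds of library was not computed. In the polyA libraries edgeR called 1 gene (0.00671%), and 9.39% of 15480 with all 9 of them. *Cxcl1* had the other sign at an unadjusted *p* below 0.05 (−0.29). *Frzb*, at 4.96 and 1.78 CPM in WT, 82.5 and 30.4 in G7 and 34.5 and 14.7 in B10, had a log2 fold change of 1.37 in the polyA libraries. Outside the 20, *Fabp4* was higher there in replicate 1 of every line, B10 included. It was at 1.222 and 0.3335 CPM in WT, 12.68 and 3.33 in G7, and 4.926 and 1.065 in B10. *Col1a1*, at −1.19 in rRNA-depleted RNA, was at 0.00 in polyA RNA. Its level was 81.0 to 692 CPM in the 9 rRNA-depleted libraries and 4891 to 8953 CPM in the 9 polyA libraries. The 2 kinds of library were counted by different tools, and the reason for this gap was not tested. The immediate early list had a median of 0.03 in polyA RNA, with 10 genes higher and 8 lower at an unadjusted *p* below 0.05, against 0.39 here. The G1/S list had 0.80 in polyA RNA, with 18 genes higher at that level, against −0.33 here. The ATF4 list had a median of 0.37 in polyA RNA, against −0.50 here, and the cholesterol list 0.68, with 20 genes higher at an unadjusted *p* below 0.05 (10.4% of all genes).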

How the data were processed

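RNA depleted of ribosomal RNA from WT, G7 and B10 MPCs was analysed, with replicates 1 and 3 compared and replicate 2 and the polyA libraries set beside them. Per the labels and methods, the authors aligned reads with STAR to mm10 and deposited counts over Entrez genes and TE loci from TElocal, which shares out reads that map to several places. The strand setting is not given in the sources used here. For polyA libraries the authors deposited expected counts per gene from Salmon, as whole numbers. The deposited gene counts were read without change, and the TE loci (3725827) were summed into 73 families or 1153 elements.

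edgeR 4.0.16 (TMM factors, filterByExpr with a minimum count of 10 and minimum total of 15) fitted line and replicate by quasi-likelihood in the 6 libraries, over genes and families together or genes and elements together. Features were called at a Benjamini-Hochberg adjusted *p* below 0.05. CPM used TMM-scaled library sizes of all 9 libraries, and differences within a line used CPM + 0.5. Standard errors were derived from the fold change and its F statistic. DESeq2 1.42.0, other scalings, filters, designs and left-out libraries were alternatives, and the code was tested on simulated data. Named genes were to be the most changed called genes. None was called, so the 10 smallest *p* in each direction were taken among genes with 1 direction in all lines and an average log2 CPM of at least 1, with the 3 highest and 3 lowest families. Members of gene lists named in the text were chosen after their values were seen, and the members and lists were chosen with earlier results of these data known. Gene positions are from GRCm38 and promoters from RefSeq GRCm38.p6. Deviations from the line means correlated at −0.291 (WT and G7 replicate 3) to 0.714 between same-numbered libraries (mean 0.338) and at −0.674 to 0.647 between differently numbered ones (mean −0.166). The deviations of a line sum to 0, so the mean of differently numbered pairs largely follows from that of same-numbered pairs. The depth of each library limits the precision of low values. With the line as a block, *p*-values cover only how far the difference between replicate numbers varied among the lines. Some members of the lists are not reported here.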

Additional observations from a re-analysis of the deposited data

Results flagged for a closer look

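In 5 gene lists the median log2 difference between replicates 1 and 3 was at least 0.1 from 0 in every line, with 1 sign in WT and the other in both clones. Lists with a WT median nearer to 0, such as the interferon and chondrogenic lists (both −0.02 in WT), are not counted. For G1/S and DNA replication genes the median was 0.28 in WT, −1.08 in G7 and −0.16 in B10. Histone genes of S phase had 0.42 in WT, −1.08 in G7 and −0.43 in B10. Targets of ATF4 had 0.19 in WT, −0.84 in G7 and −0.86 in B10. Heat shock genes had 0.19 in WT, −0.18 in G7 and −0.13 in B10. Small nucleolar and Cajal body RNA genes had 0.14 in WT, −0.24 in G7 and −0.36 in B10. Each line gives 1 difference, from 1 library of each number, and the difference between WT and the clones was not tested for these medians.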

How the results depend on the processing

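Against 0 genes called, DESeq2 called 293 and scaling on TE counts alone 228 (225 higher, 3 lower), and leaving out each library in turn gave 0 to 709. For TE families, 0 in the fit reported, DESeq2 called 1 and leaving out libraries gave 0 to 1. For TE elements, also 0, DESeq2 called 4 and leaving out libraries gave 0 to 4. With all 9 polyA libraries 1453 genes were called, against 1 with 6. The cause of these differences was not tested. The gene count stayed at 0 with median-of-ratios factors, no filter, at least 10 counts in every library, no line term, all 9 rRNA-depleted libraries, scaling on genes alone and a fold change limit. Of the fold changes of single genes, *Cebpa* turned to 0.10 under scaling on TE counts, and *Atrx*, 0.16 in the fit reported, ranged from −0.031 to 0.386 over the left-out libraries and was below 0 (−0.027 and −0.031) without G7 replicate 1 or 3. For pairs formed by replicate number, no paired analysis was possible because a block on the replicate number would remove the comparison itself. Pairs formed by line were used: the line term of the fit reported pairs replicates 1 and 3 of each line. With 3 libraries a side, a gene that was not called was not shown to be unchanged, and genes at a few CPM are measured imprecisely. Larger differences of more abundant genes were not called either. *Col1a1*, at 81.0 to 328 CPM in the 6 libraries, had a log2 fold change of −1.19 and an adjusted *p* of 0.240 by edgeR. What limited the calls was not tested.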
